A study of Homo sapiens with 6 samples.

Results

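The genes described here are the 10 core circadian clock genes *ARNTL*, *CLOCK*, *PER1*, *PER2*, *PER3*, *CRY1*, *CRY2*, *NR1D1*, *NR1D2* and *DBP*, chosen by name among the 39739 gene rows of RNA-seq tables. All 10 had a row and all 10 passed the filter on low values. The libraries came from HGC27, an established human gastric cancer cell line. HGC27-FN1 3′-UTR cells (3 libraries, replicates 1 to 3) had been made to overexpress the *FN1* 3′-UTR stably with lentivirus and had been selected with puromycin, and HGC27-control cells (3 libraries, replicates 1 to 3) carried the genotype label Control. Both were grown in RPMI-1640 with fetal bovine serum, and the comparison asks which transcripts differ in cells that overexpress this 3′-UTR. The labels do not say whether replicates are separate cultures, so p-values measure the spread between these libraries. The hour of harvest, any synchronisation of the cultures and whether the lines were clones are not given in the sources used here.

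The circadian clock is a transcriptional loop that runs in most cell types with a period of about a day. ARNTL (also named BMAL1) and CLOCK bind E-boxes together and switch on the *PER* and *CRY* genes, whose proteins return to the nucleus and inhibit the pair. A further loop runs through the REV-ERB receptors NR1D1 and NR1D2, which repress *ARNTL* at ROR elements (ROREs), where ROR receptors activate it. Another runs through D-boxes, which are bound by DBP, TEF and HLF as activators and by NFIL3 as a repressor. In a culture that has not been synchronised, cells are at different phases, and a bulk library averages over them.

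Short windows of the RefSeq promoters are shown because these 3 elements are the sequences through which the loops are known to act. Promoters were searched in the RefSeq table on GRCh38.p14, from 250 bases before to 50 bases after each start site, and 15 windows matched the 10 genes. The motif letters are in capitals (AACGTG is CACGTT read on the other strand), each window holds 30 bases in the direction of transcription, and positions are counted from the start site at 0.

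PER1 E-box, chr17:8152560-8152589, reverse strand: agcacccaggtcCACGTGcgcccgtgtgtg

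PER1 D-box, chr17:8152416-8152445, reverse strand: agtgcccggcaTTATGCAAcccgcctcccc

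PER2 E′-box, chr2:238288790-238288819, reverse strand: ggcgcgcgcggtCACGTTttccactatgtg

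PER2 D-box, chr2:238288595-238288624, reverse strand: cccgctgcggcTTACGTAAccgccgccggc

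PER3 D-box, chr1:7784103-7784132, forward strand: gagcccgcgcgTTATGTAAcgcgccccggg

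CRY1 E′-box, chr12:107093621-107093650, reverse strand: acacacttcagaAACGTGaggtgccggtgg

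CRY2 E′-box, chr11:45847275-45847304, forward strand: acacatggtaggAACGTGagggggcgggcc

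NR1D1 E′-box, chr17:40100740-40100769, reverse strand: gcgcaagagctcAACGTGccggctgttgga

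NR1D2 E-box, chr3:23946004-23946033, forward strand: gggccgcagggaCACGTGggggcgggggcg

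ARNTL RORE, chr11:13277773-13277802, forward strand: tggtcggaaagTAGGTTAgtggtgcgacat

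ARNTL RORE, chr11:13277809-13277838, forward strand: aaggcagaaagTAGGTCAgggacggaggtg

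The E-box CACGTG, searched on both strands, was in the promoters of *PER1* (position -173) and *NR1D2* (positions -155 and -105), and 7.26% of all 35116 promoters held it. The variant CACGTT (E′-box) was found for *PER2*, *CRY1*, *CRY2*, *NR1D1* and *CLOCK*, against 5.34% of all promoters. The D-box letters TTATGTAA were found for *PER3* and *NR1D2* (0.886% of all promoters), TTATGCAA for *PER1* (0.846%) and TTACGTAA for *PER2* (0.125%). Of the RORE letters, TAGGTCA was found for *ARNTL* and *CRY2* (1.85% of all promoters), TAGGTTA for *ARNTL* (1.10%) and TGGGTCA for *CLOCK* and *NR1D2* (3.92%). No match overlapped another, and the *DBP* window held none of these letters. Of the windows shown, those of *PER3* and *NR1D1* lay outside the deposited gene spans and the others lay inside them. A match describes the sequence only, and no binding was measured.

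The libraries held between 16357085 and 37037532 reads assigned to genes, with the fewest in HGC27-FN1 3′-UTR replicate 1. Expression was deposited as RPKM, read counts scaled to merged exon length and to the assigned reads of the library, and the whole reads behind each value could be recovered. The clock genes had between 51 reads (*ARNTL*, HGC27-FN1 3′-UTR replicate 1) and 2851 reads (*PER3*, HGC27-control replicate 3) in a library. *FN1* itself, as a check of the labels, had 0.780 ± 0.0371 RPKM with the 3′-UTR and 0.516 ± 0.0370 RPKM in controls (SD, n = 3 each), with all merged exons counted together. limma was run on log2(RPKM + 0.1) over 23299 genes, two-sided with Benjamini-Hochberg adjustment, and a gene was called at an adjusted p under 0.05. Fold changes on this scale understate those of genes with low RPKM.

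Of the 10 clock genes, limma called 4 lower with the *FN1* 3′-UTR (*PER2*, *PER3*, *CRY2* and *DBP*) and 0 higher. Over all tested genes 7.36% were called lower, 5.62% higher and 13.0% in either direction. Many of these have low values. With a mean RPKM of at least 1 required, 1861 of 14652 genes were called lower, and the same 4 of 9 clock genes tested. The clock genes had been chosen with earlier results of these data known. At an unadjusted p under 0.05, 6 of the 10 were lower and 1 was higher, where 17.6% and 12.0% of all genes tested were. The median log2 fold change of the 10 genes was -0.24, against -0.04 over all genes tested. None passed an absolute log2 fold change above 1 with an unadjusted p under 0.05, which 2.47% of all genes did. Every HGC27-FN1 3′-UTR library lay below every HGC27-control library for 6 of the 10 genes and above for 2, while the groups lay apart in these directions for 21.7% and 14.3% of all genes tested. In bulk samples, fewer cells expressing a gene and less RNA per cell cannot be told apart.

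**Figure D1:**
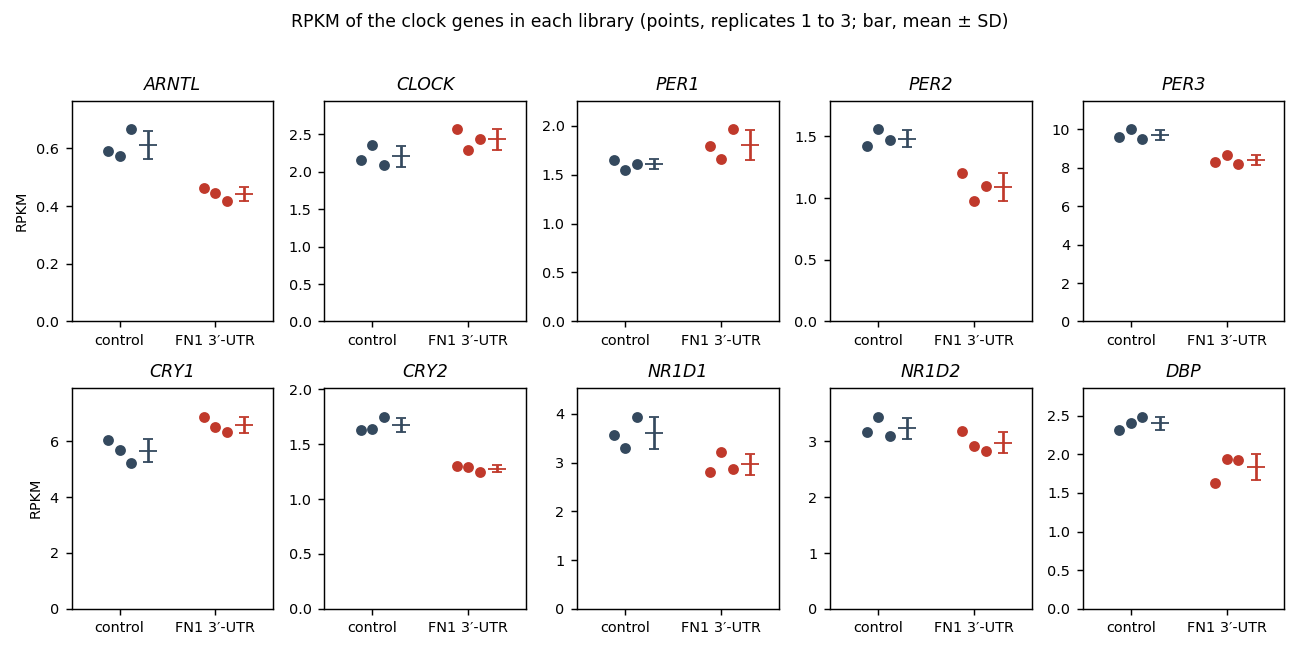
RPKM of each of the 10 clock genes on a linear axis from 0, with a point for each of the 3 libraries of a group and the mean ± SD beside them. The groups lay apart for *ARNTL*, *PER2*, *PER3*, *CRY2*, *NR1D1* and *DBP* (HGC27-FN1 3′-UTR below) and for *PER1* and *CRY1* (HGC27-FN1 3′-UTR above), and overlapped for *CLOCK* and *NR1D2*.

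The calls were small. Leaving out any 1 library ended all 4 calls, except that *PER3* was still called without HGC27-FN1 3′-UTR replicate 2. The direction of all 10 genes was kept in each of these fits. Lower calls over all genes also dropped in them, from 1715 to between 470 and 1015. A part of those calls thus remained in each fit, while at most 1 of the 4 clock calls did. The cause of the losses was not tested. When same-numbered libraries were blocked together, 0 of the 10 genes were called, and calls over all genes in either direction went from 3025 to 1162. Without the filter on low values *PER2* and *DBP* were no longer called (limma adjusted p = 0.0722 and 0.0534). On the recovered reads, limma's voom called 6 of the 10 lower, adding *ARNTL* and *NR1D1*, and 1 higher, *CRY1*, where 13.2% of all genes were called lower and 8.76% higher.

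*ARNTL*, the activator whose level sets the positive limb of the loop, lies on chromosome 11 from 13276652 to 13387266. Its RPKM was 0.464, 0.444 and 0.417 in HGC27-FN1 3′-UTR replicates 1 to 3 and 0.593, 0.574 and 0.666 in HGC27-control replicates 1 to 3. All 3 HGC27-FN1 3′-UTR libraries were thus below all controls. The groups together held 206 and 374 reads, not scaled to library depth. The log2 fold change was -0.39 (standard error 0.12), and the adjusted p from limma was 0.081, above the threshold. *CLOCK*, its partner on chromosome 4 from 55427903 to 55547138, had 2.57, 2.29 and 2.44 RPKM with the *FN1* 3′-UTR and 2.16, 2.36 and 2.10 RPKM in controls. These ranges overlapped, and the log2 fold change was 0.13 with a 95% interval from -0.04 to 0.31 (limma adjusted p = 0.284).

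The PER proteins form the repressive complex with the CRY proteins. *PER2*, on chromosome 2 from 238244038 to 238290102, had 1.20, 0.976 and 1.10 RPKM with the *FN1* 3′-UTR and 1.42, 1.56 and 1.47 RPKM in controls. It fell by 26.4% in mean RPKM (limma log2 fold change -0.41 ± 0.097 standard error, adjusted p = 0.0407). The groups did not overlap, and HGC27-FN1 3′-UTR replicate 2 was the lowest library. *PER3*, on chromosome 1 from 7784320 to 7845177, had 8.30, 8.67 and 8.17 RPKM with the *FN1* 3′-UTR and 9.58, 10.0 and 9.50 RPKM in controls. Its change was the smallest among the 4 called genes, with a log2 fold change of -0.21 ± 0.040 (standard error; limma adjusted p = 0.0232). With 11825 reads in all it was the most deeply covered of the 10 genes, and its groups did not overlap.

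*PER1*, the PER gene best known for rapid induction by hormones and cAMP, lies on chromosome 17 from 8140472 to 8156506 and did not share this direction. It had 1.79, 1.65 and 1.96 RPKM with the *FN1* 3′-UTR and 1.65, 1.55 and 1.61 RPKM in controls. The lowest HGC27-FN1 3′-UTR library, replicate 2, lay just above the highest control, replicate 1. The log2 fold change was 0.16 with a 95% interval from -0.04 to 0.35 (limma adjusted p = 0.262).

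The cryptochromes are the stronger inhibitors of the CLOCK and ARNTL pair. *CRY2*, on chromosome 11 from 45847118 to 45883248, had 1.30, 1.29 and 1.24 RPKM with the *FN1* 3′-UTR and 1.63, 1.64 and 1.75 RPKM in controls. It fell by 23.7% (limma log2 fold change -0.36 ± 0.070 standard error, adjusted p = 0.0226), and its groups did not overlap. *CRY1*, on chromosome 12 from 106991364 to 107093829, had 6.88, 6.53 and 6.33 RPKM with the *FN1* 3′-UTR and 6.05, 5.69 and 5.24 RPKM in controls. Every HGC27-FN1 3′-UTR library was above every control, the reverse of *CRY2*. The log2 fold change was 0.22 with a 95% interval from 0.06 to 0.37, and the adjusted p of 0.0778 from limma was above the threshold.

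*NR1D1* encodes REV-ERBα and lies on chromosome 17 from 40092787 to 40100725. It had 2.80, 3.22 and 2.87 RPKM with the *FN1* 3′-UTR and 3.57, 3.30 and 3.94 RPKM in controls. The groups lay apart by a narrow gap, between HGC27-FN1 3′-UTR replicate 2 and HGC27-control replicate 2. The log2 fold change, -0.27 with a standard error of 0.086, had an adjusted p of 0.0896 in limma. *NR1D2*, which encodes REV-ERBβ on chromosome 3 from 23945260 to 23980618, had 3.19, 2.93 and 2.82 RPKM with the *FN1* 3′-UTR and 3.17, 3.45 and 3.09 RPKM in controls. These ranges overlapped, and the log2 fold change was -0.11 with a 95% interval from -0.28 to 0.06 (limma adjusted p = 0.337).

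*DBP*, an output activator that binds D-boxes and is itself switched on by CLOCK and ARNTL, lies on chromosome 19 from 48630030 to 48637438. It had 1.63, 1.93 and 1.93 RPKM with the *FN1* 3′-UTR and 2.32, 2.40 and 2.49 RPKM in controls. It fell by 23.8% (limma log2 fold change -0.38 ± 0.083 standard error, adjusted p = 0.0340). The groups did not overlap, and HGC27-FN1 3′-UTR replicate 1 was the lowest library.

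Some of these genes share exon bases with genes on the opposite strand. The library kit was strand-specific, but the strand setting of the counting is not given in the sources used here, so reads in shared bases are uncertain. *NR1D1* shares 263 of its 2772 merged exon bases with *THRA*, a thyroid hormone receptor gene, which had 13.4 ± 0.296 RPKM with the *FN1* 3′-UTR and 16.3 ± 0.139 RPKM in controls (SD, n = 3 each). *THRA* was called lower too, at a log2 fold change of -0.29 (limma adjusted p = 0.00438). *PER3* shares 868 of its 8099 bases with *UTS2*, the urotensin 2 gene (mean 1.56 RPKM against 2.40 RPKM in controls), and 482 with *RP3-467L1.4* (14.8 against 15.8 RPKM). *DBP* shares 661 of its 6544 bases with *SPHK2*, a sphingosine kinase gene (1.65 against 1.90 RPKM). *UTS2*, *RP3-467L1.4* and *SPHK2* were not called (limma adjusted p = 0.0624, 0.415 and 0.192). The genes sharing bases with *PER2* (*AC096574.4*), *CRY1* (*RP11-797M17.1*) and *CLOCK* (*TMEM165* and *RP11-528I4.2*) each covered at most 2.73% of its merged exons, and *RP11-5O24.1* and *NKIRAS1* overlapped the spans of *PER2* and *NR1D2* without a shared exon base. *PER1* shares 30 bases with *RP11-599B13.6* on its own strand. The part of these neighbours in the differences was not tested.

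Ratios between clock genes within a library do not depend on how libraries are scaled, and they are given without a test. The log2 ratio of *CRY1* to *CRY2* was 2.34, 2.35 and 2.40 in HGC27-FN1 3′-UTR cells in rising order and 1.58, 1.80 and 1.89 in HGC27-control cells. *CRY1* was thus 5.15 ± 0.120 times the level of *CRY2* in HGC27-FN1 3′-UTR cells and 3.39 ± 0.365 times in HGC27-control cells (SD, n = 3 each). *PER1* was 1.66 ± 0.153 times the level of *PER2* in HGC27-FN1 3′-UTR cells and 1.08 ± 0.0849 times in HGC27-control cells. *ARNTL* relative to *CLOCK* was 0.182 ± 0.0115 and 0.278 ± 0.0377 in the same order. For each of these 3 pairs the groups did not overlap. For *CRY1* to *CRY2* and *PER1* to *PER2* this follows from the opposite separation of the single genes, so it adds no separate result. The size of such a ratio depends on the gene lengths used: with principal transcript lengths in GENCODE release 29, tried after seeing the data, *ARNTL* was 0.386 ± 0.0244 and 0.591 ± 0.0801 times *CLOCK*, *PER1* was 2.29 ± 0.211 and 1.50 ± 0.117 times *PER2*, and *CRY1* was 5.41 ± 0.126 and 3.56 ± 0.383 times *CRY2*. The fold between the groups does not depend on these lengths. The groups overlapped for *NR1D1* to *NR1D2*, with mean log2 ratios of -0.01 and 0.15, and for *DBP* to *ARNTL*, with 2.05 and 1.98. Both *DBP* and *ARNTL* had lower mean RPKM with the *FN1* 3′-UTR, and their ratio stayed within the spread of the libraries. The *PER2* to *PER3* ratio was lower and the *PER1* to *PER3* ratio higher in every HGC27-FN1 3′-UTR library than in every control. The latter again follows from the single genes. The *ARNTL* to *NR1D1* ratio was lower in every HGC27-FN1 3′-UTR library, though its highest value there, -2.595, was close to the lowest control value, -2.591.

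**Figure D2:**
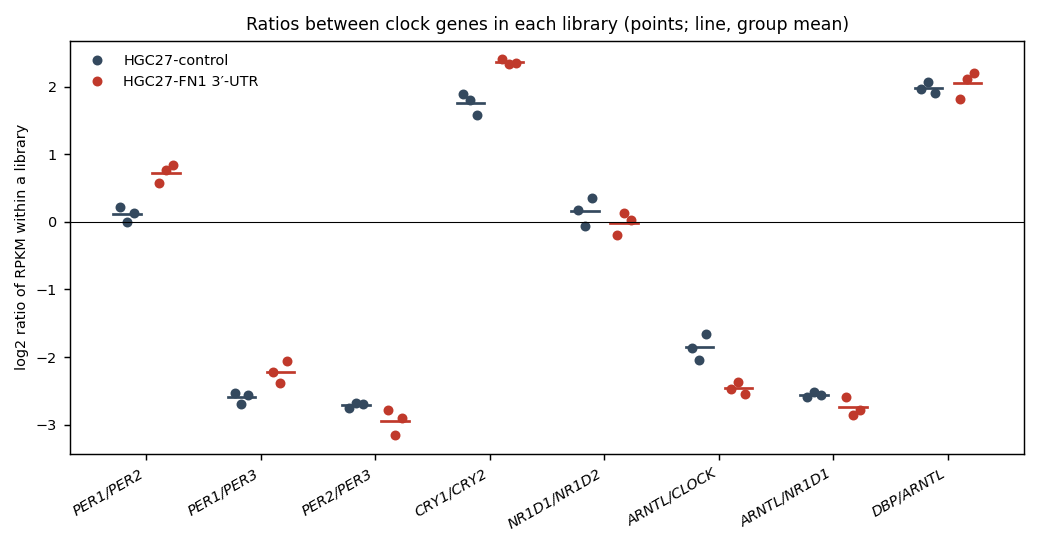
Log2 ratio of RPKM between pairs of clock genes in each of the 6 libraries, with a line at each group mean. The *CRY1*/*CRY2* and *PER1*/*PER2* ratios lay higher and the *ARNTL*/*CLOCK* ratio lower in all 3 HGC27-FN1 3′-UTR libraries, and the *NR1D1*/*NR1D2* and *DBP*/*ARNTL* ratios overlapped. The *CRY1*/*CRY2* and *PER1*/*PER2* separations follow from those of the single genes.

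By RPKM in HGC27-control cells, *PER3* had the highest level (9.69 ± 0.265) and *CRY1* the next (5.66 ± 0.407), followed by *NR1D1* (3.61 ± 0.323), *NR1D2* (3.24 ± 0.187), *DBP* (2.40 ± 0.0842), *CLOCK* (2.21 ± 0.140), *CRY2* (1.67 ± 0.0667), *PER1* (1.60 ± 0.0516), *PER2* (1.48 ± 0.0698) and *ARNTL* (0.611 ± 0.0488; SD, n = 3). The ranges of *NR1D1* and *NR1D2*, of *DBP* and *CLOCK*, of *CRY2* and *PER1*, and of *PER1* and *PER2* overlapped. Within a library, *DBP* was above *CLOCK* in every control (2.32, 2.40 and 2.49 against 2.16, 2.36 and 2.10 RPKM). The order of the other pairs varied between the control libraries. In HGC27-FN1 3′-UTR cells *NR1D2*, *CLOCK* and *PER1* each moved ahead of the gene above it, while *PER3*, *CRY1*, *PER2* and *ARNTL* kept their places. The ranges of *NR1D2* (2.82 to 3.19 RPKM) and *NR1D1* (2.80 to 3.22 RPKM) overlapped there too. *CLOCK* (2.29 to 2.57 RPKM) lay above *DBP* (1.63 to 1.93 RPKM), and *PER1* (1.65 to 1.96 RPKM) above *CRY2* (1.24 to 1.30 RPKM). The ranges of *DBP* and *PER1* overlapped in these cells. RPKM depends on the merged exon length, which was 6544 bases for *DBP* against 2229 bases for its principal transcript in GENCODE release 29, and 6726 against 2776 bases for *ARNTL*. With principal transcript lengths, which were tried only after seeing the data, *DBP* moved from place 5 to place 3 at 7.05 ± 0.247 RPKM on this length (SD, n = 3). *NR1D1* and *NR1D2* thereby moved to places 4 and 5, and the other genes kept theirs by mean. On this length the ranges of *ARNTL* and *PER2*, of *NR1D1* and *NR1D2*, and of *CLOCK*, *CRY2* and *PER1* overlapped.

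**Figure D3:**
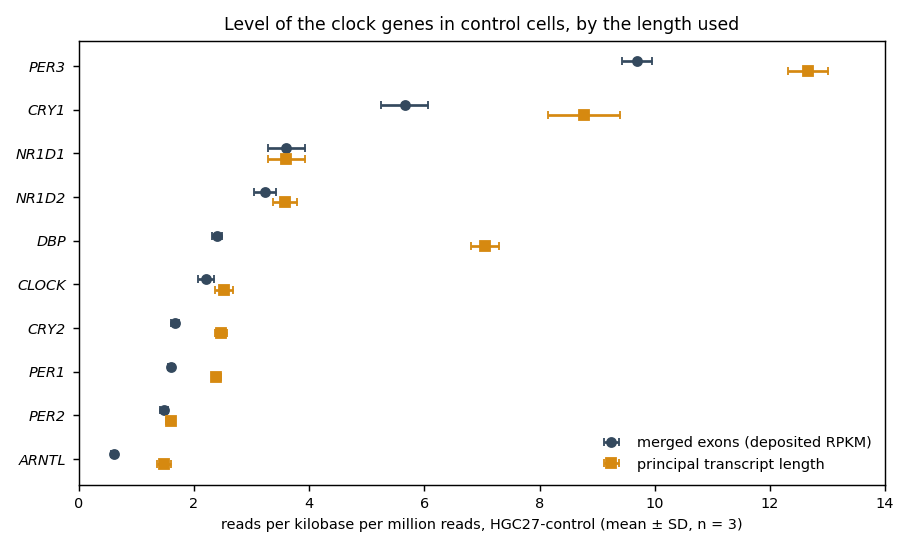
Level of each clock gene in HGC27-control cells (RPKM, mean ± SD, n = 3), computed with the merged exons of the deposited table (circles) and with the principal transcript length (squares). *PER3* was highest on both scales and *ARNTL* had the lowest mean, overlapping *PER2* on the second scale, and *DBP* was 2.40 on the first and 7.05 on the second.

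Other genes of the clock were taken from 7 lists, of which 40 genes are reported here: 34 were tested, 5 were too low and 1 had no row. Of these 34, limma called 6 lower (17.6%, against 7.36% of all genes) and 0 higher, with a median log2 fold change of -0.12. With a mean RPKM of at least 1 required, 7 of 31 were called lower, where 1861 of 14652 of all genes were. At an unadjusted p under 0.05, 13 of the 34 were lower and 1 (*DDB1*) was higher, against the 17.6% and 12.0% of all genes given above, and voom called *DDB1* higher too. *TEF*, the D-box activator most closely related to DBP, was lower in every HGC27-FN1 3′-UTR library, at 1.13, 1.15 and 1.07 RPKM against 1.62, 1.58 and 1.60 RPKM in HGC27-control cells. limma gave -0.48 ± 0.070 (standard error) for its log2 fold change, at an adjusted p of 0.0107, and it stayed called whichever library was left out, though not in every other alternative. The other D-box factors were not called, the activator *HLF* at -0.12 and the repressor *NFIL3* at -0.24. *RORB*, an ROR receptor gene, fell from 1.31 ± 0.0168 to 0.958 ± 0.0481 RPKM (SD, n = 3 each; log2 fold change -0.41, limma adjusted p = 0.0227). *RORA* had 138 reads over the 6 libraries and was not tested.

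Of the other bHLH-PAS activators neither was called. *NPAS2*, which can replace CLOCK, had a log2 fold change of -0.28 (limma adjusted p = 0.183) and *ARNTL2* one of 0.01 with a 95% interval from -0.14 to 0.15. Among 5 tested E-box repressors and clock protein partners, 1 was called, *TIMELESS*, which also serves the replication fork (log2 fold change -0.13, limma adjusted p = 0.0428). *NONO*, an RNA-binding partner of PER, had -0.09 and *CIPC*, an inhibitor of CLOCK, 0.02. *BHLHE41* had -0.48 (limma adjusted p = 0.0549), and its paralog *BHLHE40* had 0.02. Of 10 tested kinases, ubiquitin ligases and deubiquitinases acting on PER and CRY, only *BTRC*, the ligase adaptor that marks phosphorylated PER for degradation, was called, with 6.03 ± 0.0472 RPKM against 7.10 ± 0.285 RPKM (log2 fold change -0.23, limma adjusted p = 0.0203). Of those not called, the deubiquitinase gene *USP7* had a log2 fold change of -0.05, the ligase adaptor gene *DDB1* 0.16 (limma adjusted p = 0.0556), and the casein kinase genes *CSNK1A1* and *CSNK1E* -0.04 and -0.05.

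Of 5 tested clock output genes, 1 fell. *TSC22D3*, a target of glucocorticoids and of the clock, had 1.82, 2.11 and 2.04 RPKM with the *FN1* 3′-UTR and 4.43, 5.22 and 4.84 RPKM in controls. Its log2 fold change of -1.24 ± 0.085 (standard error; limma adjusted p = 0.00108) was the largest in size of the clock genes reported here, and the groups lay far apart. Of those not called, *NAMPT*, the NAD salvage enzyme gene, had -0.07, *KLF10* and *KLF9*, which encode Krüppel-like factors, had 0.13 and -0.16, and *WEE1*, a cell cycle kinase gene, had -0.17. Of 8 tested genes that carry signals to *PER1* and *PER2*, 1 was called, the CREB coactivator gene *CRTC1* (log2 fold change -0.17, limma adjusted p = 0.0484). Its paralog *CRTC2* had -0.15, the heat shock factor gene *HSF1* -0.12, and the salt-inducible kinase genes *SIK3* and *SIK2* -0.19 and -0.16, without a call. The glucocorticoid receptor gene *NR3C1* had 4 reads over the 3 overexpressing libraries and 1 over the 3 controls, and was not tested. Whichever library was left out, *TSC22D3* stayed called as well, while *RORB*, *TIMELESS* and *CRTC1* did not, and in these fits *BTRC* was called only without HGC27-control replicate 1 or 3. *TIMELESS* and *CRTC1* were not called without the filter or with median-ratio scaling either.

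**Figure D4:**
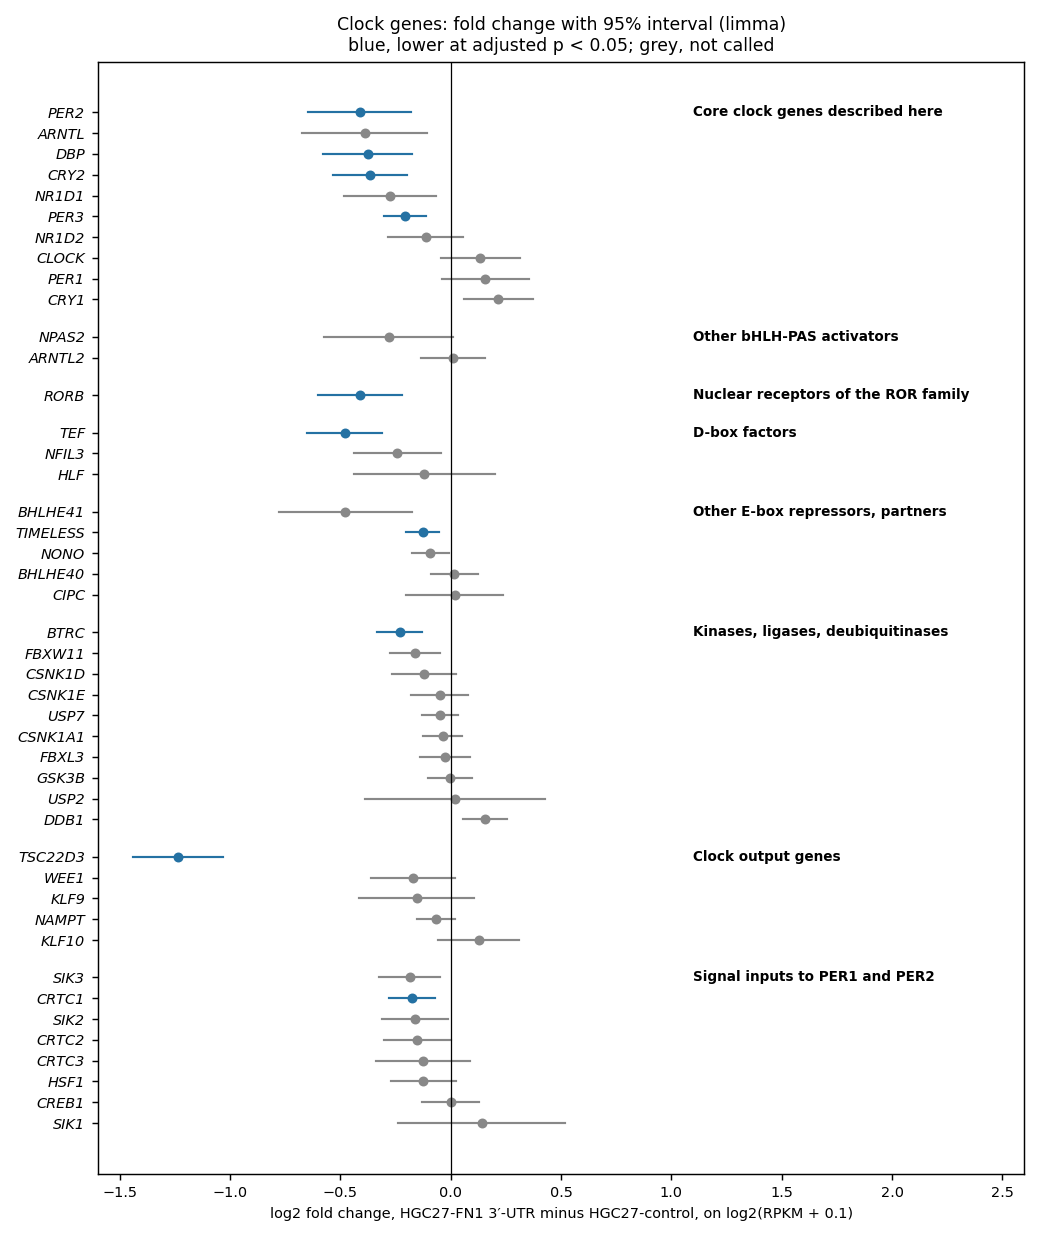
Log2 fold change on log2(RPKM + 0.1), HGC27-FN1 3′-UTR minus HGC27-control, with its 95% interval from limma, for the 10 core clock genes and 34 other clock genes grouped by role. Blue marks genes called lower and grey genes not called; *TSC22D3* lies farthest from 0 at -1.24.

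Epithelial marker genes differed between the groups. All 5 epithelial markers (*EPCAM*, *KRT8*, *KRT18*, *KRT19* and *CDH1*) were called higher, and their summed level ranged from 18.2 to 27.0 RPKM with the *FN1* 3′-UTR, against 2.59 to 2.99 RPKM in controls. The summed mesenchymal markers (*VIM*, *ZEB1* and *CDH2*) ranged from 305 to 330 RPKM and from 301 to 339 RPKM. Nearly all of this sum was *VIM*, with group means of 304 and 303 RPKM in the same order. *ZEB1* had 14.9 and 14.8 RPKM, and *CDH2* had 19 and 18 reads in the groups and was too low to test. Leukocyte markers summed to at most 0.290 RPKM in any library and endothelial markers to at most 0.0222 RPKM, with *PECAM1* at 0 in all. *HBA1*, nearly identical to *HBA2*, a red cell marker, had 13.5 ± 1.63 and 16.2 ± 2.74 RPKM (SD, n = 3 each). The part of the epithelial shift in the clock gene differences was not tested.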

How the data were processed

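The 6 RNA-seq libraries were grouped by their labels, 3 of each genotype. The submitters' processing notes name Trimmomatic 0.36, STAR 2.5.3a, featureCounts of Subread 1.5.1 and GRCh38, and the authors deposited RPKM per gene and library. The annotation release, the strand setting and the handling of duplicates are not given in the sources used here. RPKM times length was a whole multiple of 1 read, within 0.01 read, for 100% of values above 0. The smallest level that 3 reads show was 0.0810 to 0.183 RPKM for a transcript of 1 kilobase, for counting error only.

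Genes that reached 0.1 RPKM in a minimum of 3 libraries entered limma 3.58.1 in R 4.3.3 on log2(RPKM + 0.1). The fit had group as the only term and a trend in the prior variance. It was tried on simulated reads with larger changes than those of the called core clock genes. That trial therefore does not show how reliable calls of their size are. The clock genes and lists were chosen by name with earlier results of these data known. All clock genes described were named, and of the other lists the called genes and up to 4 uncalled genes with the highest mean RPKM, besides untested genes singled out after their values were seen. A few listed genes are not reported here and were left out of the counts. Genes overlapping a clock gene were named from 10 reads in total. Python 3.11.15, pandas 2.3.3, numpy 2.4.6 and matplotlib 3.10.9 were used for tables and figures.

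Replicate numbers recur in both groups, and a fit with them as a block was run beside the unblocked one. Other alternatives were the pseudocount, the filter, median-ratio scaling, voom on recovered reads, the fold criterion and each library left out.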

Additional observations from a re-analysis of the deposited data

How the results depend on the processing

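All 10 clock genes kept their direction in every alternative that tested them. The number of clock genes called lower, 4 as reported, was the same 4 genes with a pseudocount of 1 or 0.01, a mean RPKM of at least 1 (where *ARNTL* was not tested) and median-ratio scaling, and 6 with voom. It was 2 with no filter, 0 with the fold criterion, and 0 to 1 with each library left out, where calls over all genes also dropped. The number called higher, 0 as reported, was 1 with voom. For the other clock genes, 6 called lower became 13 with voom, 7 with a mean RPKM of at least 1, 4 with no filter or median-ratio scaling (*TIMELESS* and *CRTC1* lost in both), 1 with the fold criterion and 2 to 3 with a library left out. Their number called higher, 0 as reported, became 1 with a mean RPKM of at least 1, median-ratio scaling or voom (*DDB1* in each). Over all genes, 1715 of 23299 were called lower as reported and 3066 with voom. With a mean RPKM of at least 1 it was 1861 of 14652, and with no filter 1296 of 36521. It was 1320 with median-ratio scaling and 470 to 1015 with a library left out. Higher calls were 1310 as reported, 1212 with a mean RPKM of at least 1, 1718 with median-ratio scaling and 2042 with voom. The cause of these changes was not tested.

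With the replicate number as a block, 0 clock genes were called, and 1 other clock gene (*TSC22D3*, not *TEF*) was lower and 0 were higher. The labels give no shared origin for equal numbers and, once group means were subtracted, same-numbered libraries correlated at only 0.00244, 0.0211 and 0.0103 over genes, so the fit without the block was reported. By these correlations 5 of the 6 libraries were closest to their own number. The count uses the same small correlations from both sides, so it cannot decide whether libraries were paired. Over all genes, 56.7% of 3025 calls were lower as reported and 43.4% of 3038 with median-ratio scaling, and the block left 1162 calls. With 51 to 166 reads per library, *ARNTL* was the least precisely measured clock gene.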
